A study of Mus musculus with 6 samples.

Results

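Transcripts of the integrin and laminin chains were examined in pMEFs, primary fibroblasts cultured from C57bl6 mouse embryos. HAT1, the enzyme that acetylates newly synthesized histone H4, was intact in 3 lines (HAT1 WT, lines 36, 47 and 78) and knocked out in the other 3 (HAT1 KO, lines 33, 41 and 72), with no treatment of either group. Members were chosen by gene symbol, and 36 of the 17512 genes in the count table matched, 25 integrin and 11 laminin chains. The study's methods describe MEFs made from mid-gestation embryos after the internal organs were taken out. For the RNA-seq lines it is not stated whether each came from a separate embryo, so p-values measure only the spread between these lines. Of the integrins, 5 formed the leukocyte group (Itgam, Itgal, Itgax, Itgb2 and Itga4), 3 others are also linked to leukocytes (Itgad, Itgae and Itgb7) and 17 bind matrix. Itgb6 was not analysed here.

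Integrins are receptors made of an alpha and a beta chain that hold cells to the extracellular matrix or to other cells. The beta2 chain Itgb2 pairs with Itgal, Itgam and Itgax and is restricted to leukocytes, whereas the beta1 chain Itgb1 pairs with many alpha chains and is used by most adherent cells, fibroblasts included. Laminins are cross-shaped trimers of an alpha, a beta and a gamma chain that build the basement membrane, the thin matrix sheet that some of these integrins bind. They are distinct from the lamins, which line the inside of the nucleus.

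The promoters of 3 leukocyte integrin genes are shown, whose levels moved unequally between the genotypes. Itgal and Itgb2 had no promoter entry and could not be shown. Each run holds the 150 bases before the RefSeq start on GRCm38.p6, plus strand, and capitals mark GAGGAA on either strand, a purine-rich core that the myeloid factor PU.1 and other ETS proteins can bind.
Itgam, chr7:128062490-128062639: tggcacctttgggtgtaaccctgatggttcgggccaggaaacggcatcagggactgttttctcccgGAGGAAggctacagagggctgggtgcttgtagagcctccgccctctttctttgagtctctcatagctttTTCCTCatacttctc
Itgax, chr7:128129400-128129549: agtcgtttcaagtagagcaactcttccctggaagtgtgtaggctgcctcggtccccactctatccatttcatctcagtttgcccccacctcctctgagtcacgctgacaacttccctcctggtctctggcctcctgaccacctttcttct
Itga4, chr2:79255276-79255425: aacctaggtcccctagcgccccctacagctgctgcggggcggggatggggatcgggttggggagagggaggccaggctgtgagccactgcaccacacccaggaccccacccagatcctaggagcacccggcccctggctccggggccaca
The Itgam run held 2 matches and the Itgax and Itga4 runs held 0. A promoter entry was found for 22 of the 36 members and was missing for 14. In the 250 bases before the start, taking the first RefSeq entry of each gene, GAGGAA on either strand was present in 11 of the 22, or 50% of them, against 23.1% of 27025 promoters of the same length. GGGCGG, the GC box bound by Sp1, was present in 8 of the 22 against 32.9% of all promoters. GAGGAA was also present for Itgb1, Itga11, Lamb1 and Lama2, which were not called in the test below. The matches are descriptions of sequence, and the first motif was chosen with the expression results known.

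Total counts ran from 67720628 to 98786746 per line, and 14773 genes were tested. Levels are given as TMM-scaled CPM, the counts of a gene relative to the scaled size of its library. Hat1 itself was at 17.4, 23.0 and 20.1 CPM in WT and at 10.2, 10.0 and 10.3 CPM in KO, so the groups separated but transcript was still counted in the lines labelled HAT1 KO. Fibroblast markers such as collagen I were abundant, summing to 46348 to 78361 CPM, with KO line 72 the lowest. Counts on Y-linked genes were 13788 and 12841 in WT lines 36 and 47, 231 in WT line 78 and between 4 and 8 in the KO lines, so genotype and sex-linked expression were partly confounded. A fit with sex-linked expression as a term sets WT lines 36 and 47 apart. Its genotype contrast therefore rests on WT line 78 as the only WT line. By lane, WT line 47 ran with KO lines 33 and 72 (lane 6), WT line 78 ran with KO line 41 (lane 7), and WT line 36 ran by itself (lane 8). With lane as a term, WT line 36 adds nothing to the genotype contrast.

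Among the 35 members tested, Itgam fell in the HAT1 KO lines and no other member passed the same test. It was the only member with an adjusted p under 0.05 in edgeR's quasi-likelihood test, where 78 of the 14773 genes tested (0.528%) were called lower. The members divided into 18 with a lower and 17 with a higher estimate, and the median log2 fold change was -0.05, against 0.0085 over all genes tested. At an unadjusted p under 0.05, 6 members were lower (Itgam, Itgb2, Itgal, Itga6, Itga9 and Itgav), or 17.1% of those tested, against 8.77% of all genes. By the same measure 2 members were higher (Itga2 and Lamc3), or 5.71%, against 5.88% of all genes. With the study's threshold of 1.5-fold added, 2 members were lower (Itgam and Itgb2), against 4.62% of all genes, and 2 were higher, against 1.5%. For 7 members every KO value was under every WT value, which is 20.0% of those tested, against 12.4% of all genes. For 2 members every KO value was above, or 5.71%, against 9.59%.

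**Figure D1:**
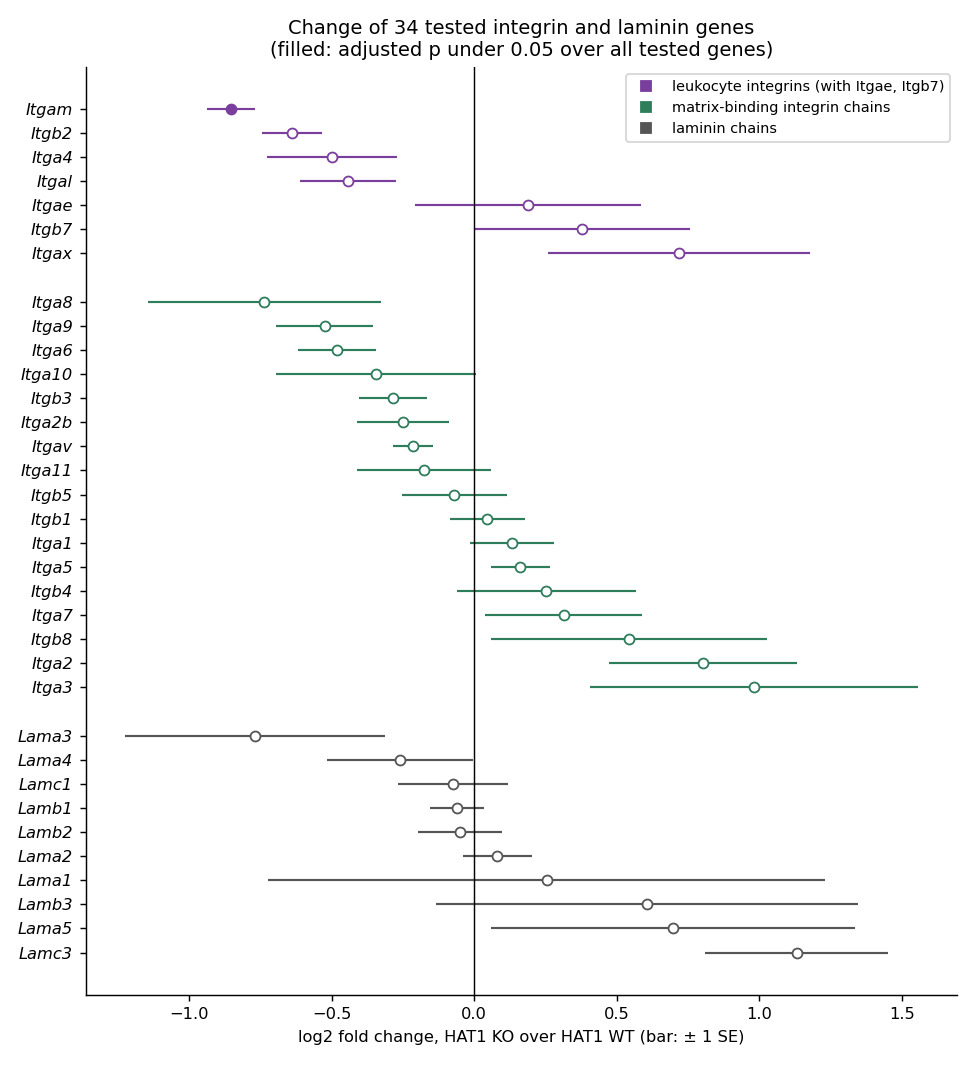
Log2 fold change of HAT1 KO over HAT1 WT (x axis, with ± 1 SE) for 34 tested members, one row per gene, grouped by class. The filled point, Itgam, is the gene with an adjusted p under 0.05, and the estimates of the other classes lie on both sides of 0.

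Of the leukocyte integrins, Itgam, Itgb2, Itgal and Itga4 were above 26 CPM in every line, and Itgax was low. Itgam, the alpha chain of the complement receptor Mac-1 of macrophages and neutrophils (chr7:128062640-128118491, GRCm38), was at 149, 156 and 166 CPM in WT and at 95.5, 82.5 and 82.8 CPM in KO. The groups did not overlap. Its mean was 157 ± 8.49 CPM (SD, n = 3) in WT and 86.9 ± 7.47 CPM (n = 3) in KO, a log2 fold change of -0.85 with an adjusted p of 0.0353 in edgeR. The log2 difference was -0.80 within lane 6, -1.01 within lane 7 and -0.93 against WT line 78 alone. With lane in the edgeR model the log2 fold change was -0.89 with an adjusted p of 0.529. With sex-linked expression in the model it was -0.93, which repeats the difference from WT line 78 alone and is no separate check. When a line was left out the adjusted p ran from 0.0487, without KO line 72, to 0.230, so the call held in 1 of those 6 fits and was lost without each of WT lines 36, 47 and 78 and KO lines 33 and 41. Of the exon bases of Itgam, 68.7% are shared with a gene model on the same strand, Gm49368, and how the counting treated them is not stated.

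Itgb2, the beta2 chain that Itgam and Itgal need to reach the cell surface, was at 129, 124 and 114 CPM in WT and at 68.9, 88.4 and 78.7 CPM in KO. The groups again did not overlap, and the log2 fold change was -0.64 with an adjusted p of 0.0772 in edgeR. Itgal, the alpha chain of LFA-1, which binds ICAM proteins on other cells, was at 93.1, 78.8 and 100 CPM in WT and at 73.3, 51.4 and 75.3 CPM in KO. The groups did not overlap, but WT line 47 and KO line 72 lay close together, and the log2 fold change of -0.44 had an adjusted p of 0.309. Within lane 6 its log2 difference was -0.09 and within lane 7 it was -0.96.

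Itga4, which pairs with Itgb1 or Itgb7 and binds VCAM-1 and fibronectin, was at 48.5, 53.0 and 51.6 CPM in WT and at 32.5, 49.8 and 26.1 CPM in KO. KO line 41 overlapped the WT lines, and the log2 fold change of -0.50 had an adjusted p of 0.385 in edgeR. Itgax, the alpha chain of complement receptor 4 and a marker of dendritic cells, was low, at 1.78, 2.06 and 1.57 CPM in WT and at 2.43, 1.42 and 5.04 CPM in KO. Its log2 fold change was 0.72 with an adjusted p of 0.522, and it was 0.11 without KO line 72, the highest line. The 3 others linked to leukocytes were low, each under 1 CPM in every line. Itgae, which with Itgb7 binds E-cadherin, had a mean of 0.366 CPM in WT and 0.418 CPM in KO. Itgb7 had means of 0.495 and 0.642 CPM. Itgad was too low to be tested, with 7, 0 and 8 counts in WT and 0, 2 and 37 counts in KO.

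**Figure D2:**
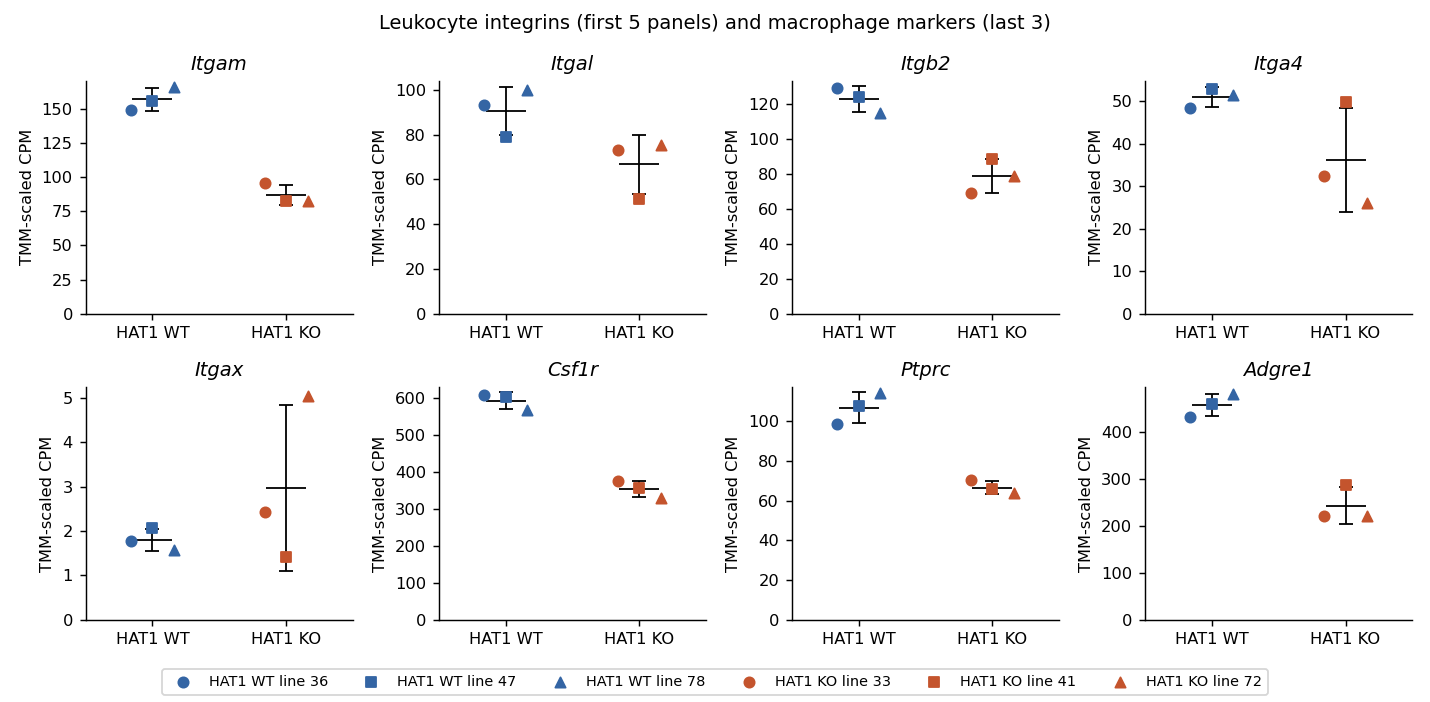
TMM-scaled CPM (y axes, from 0) of the 5 leukocyte integrins and of the macrophage markers Csf1r, Ptprc and Adgre1 in each line, with black bars for the mean ± SD of the 3 lines of a genotype. Itgam, Itgal, Itgb2, Csf1r, Ptprc and Adgre1 show no overlap between HAT1 WT and HAT1 KO. Itga4 and Itgax overlap, and Itgax is highest in KO line 72, at 5.04 CPM.

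Markers of myeloid cells moved with these integrins. All 14 myeloid markers listed had a lower estimate in the HAT1 KO lines, with a median log2 fold change of -0.75. Of them, 12 had an unadjusted p under 0.05 (85.7%, against 8.77% of all genes). An adjusted p under 0.05 in edgeR was reached by 7 (50%, against 0.528%). With lane or with sex-linked expression in the model 0 of the 14 kept an adjusted p under 0.05 and 10 were lower at the unadjusted threshold. The adjusted calls came to 4 without KO line 72 and to 0 without any other line, with 11 to 13 lower at the unadjusted threshold. Their summed level ran from 5129 to 5618 CPM in WT and from 2501 to 3071 CPM in KO. The defining markers were all present, and none was at 0. Ptprc, the CD45 phosphatase of leukocytes, was at 98.6, 108 and 114 CPM in WT and at 70.4, 65.7 and 63.8 CPM in KO. Adgre1, the F4/80 antigen of macrophages, was at 432, 460 and 480 CPM in WT and at 221, 288 and 220 CPM in KO. In bulk RNA, fewer cells of a type and less RNA per cell cannot be told apart. The part of the myeloid markers in the lower integrin levels was not tested.

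The 5 leukocyte integrins summed to 422, 413 and 434 CPM in WT and to 273, 273 and 268 CPM in KO. Their sum was 7.97 ± 0.56% of the summed myeloid markers in WT and 9.62 ± 0.963% in KO (SD, n = 3 each). The ratio was higher in all 3 KO lines, at 9.23, 8.91 and 10.7% against 8.09, 7.36 and 8.46%, with p = 0.1 in a two-sided exact permutation test, the smallest value that 3 lines against 3 can give. Lyz2, named here after its values were seen, made up 2938 of the 5321 CPM of myeloid markers in WT. Relative to Csf1r alone, the 5 integrins were at 69.3, 68.5 and 76.4% in WT and at 72.7, 76.8 and 80.9% in KO, where the groups overlapped (exact permutation p = 0.2). Relative to the summed myeloid markers, Itgam was at 2.96 ± 0.248% in WT and 3.08 ± 0.341% in KO (exact permutation p = 0.9). Itgal was at 1.71 ± 0.28% and 2.39 ± 0.673%, with overlap between the groups (exact permutation p = 0.3). These values were part of a family of 10 ratios examined, and the p-values are unadjusted because none could pass. Per kb of exon, Itgb2 amounted to 88.7 ± 10.1% of the sum of Itgam, Itgal and Itgax in WT and to 93.5 ± 22.6% in KO. By this length beta2 and its alpha partners were counted at similar levels in both genotypes, within a wide spread (73.5 to 118% over the lines). By the longest transcript, Itgb2 was at 41.2 CPM per kb in WT, beside Itgam at 33.5, Itgal at 17.4 and Itgax at 0.445. The exon overlap of Itgam with Gm49368 leaves its part in this ratio uncertain.

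Other blood and barrier cells left little signal. Lymphocyte markers summed to 0.252 to 0.596 CPM in WT and to 0.18 to 0.192 CPM in KO. Mast cell markers summed to less than 0.5 CPM in every line. Platelet lineage markers summed to 9.27 to 12.5 CPM in WT and to 4.62 to 27.3 CPM in KO, and Pf4, made by megakaryocytes and also by some macrophages, was at 7.69, 11.1 and 10.6 CPM in WT and at 3.75, 3.15 and 2.46 CPM in KO (adjusted p = 0.0479 in edgeR). That call was lost without each line in turn (adjusted p from 0.06 to 0.23) and with lane in the model (0.529). Ppbp, of the same list, went the other way, at 0.822, 0.522 and 0.404 CPM in WT and at 0.651, 0.621 and 23.8 CPM in KO. Its log2 fold change of 3.85 (adjusted p = 0.332 in edgeR) was 0.15 without KO line 72. Epithelial markers summed to at most 2.49 CPM, with Epcam at 0 in WT line 36 and KO line 72. Endothelial markers summed to 15.2 to 21.3 CPM in WT and to 13.4 to 19.0 CPM in KO, with both Pecam1 and Cdh5 under 1 CPM in all lines. Of the 7 tested, 4 had a lower and 3 a higher estimate. At an unadjusted p under 0.05 in edgeR, 2 were lower (28.6%, against 8.77% of all genes), Pecam1 and Cdh5. Their log2 fold changes were -1.63 (adjusted p = 0.176) and -0.85 (adjusted p = 0.26), each without overlap between the genotypes.

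A list of 8 genes whose proteins switch leukocyte integrins on, or tie them to actin, was read in the same fit. Of these, 7 had a lower estimate, with a median log2 fold change of -0.40. In edgeR 6 were lower at an unadjusted p under 0.05 (75%, against 8.77% of all genes). At an adjusted p under 0.05, 3 fell (37.5%, against 0.528%). The adjusted calls came to 0 with lane or with sex-linked expression in the model, to 1 (Fermt3) without KO line 72 and to 0 without any other line, while 5 or 6 of the 8 stayed lower at the unadjusted threshold in those fits. Fermt3, kindlin-3, which binds beta chain tails in blood cells, was at 68, 70.3 and 65.3 CPM in WT and at 44.6, 40.3 and 38.9 CPM in KO (adjusted p = 0.0353). Fyb, an adaptor of integrin activation, was at 50.2, 51.3 and 66.1 CPM in WT and at 24.4, 27.8 and 27.1 CPM in KO (adjusted p = 0.0357). Both genes showed no overlap between the genotypes. Lcp1, the leukocyte actin bundler L-plastin, had a log2 fold change of -0.62 with an adjusted p of 0.0357, and Skap2, an adaptor that binds Fyb, had one of -0.38 with an adjusted p of 0.109. The summed list ran from 761 to 815 CPM in WT and from 529 to 569 CPM in KO. The myeloid markers described above moved in the same lines, and their part in this list was not tested.

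The integrins that bind matrix were divided in direction. Of the 17 chains, 9 had a lower and 8 a higher estimate, with a median log2 fold change of -0.07, and 0 passed an adjusted p under 0.05 in edgeR. At an unadjusted p under 0.05, 3 were lower (17.6%, against 8.77% of all genes) and 1 was higher (5.88%, the same share as over all genes). DESeq2's Wald test called 2 of the 17 chains, Itga6 and Itgav, at an adjusted p under 0.05. The share of all genes that DESeq2's test called is not given here. It called more genes than edgeR elsewhere too, with 12 against 7 of the 14 myeloid markers. Summed over the class, levels were 4603 ± 161 CPM in WT and 4376 ± 313 CPM in KO (SD, n = 3 each), which overlapped.

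Levels between genes were compared per kb of exon. Itgb1 led with 410 ± 27.0 CPM per kb in WT and 423 ± 66.3 in KO, followed by Itgb5 with 159 ± 17.5 and 151 ± 37.6. The leading alpha chains in WT were the collagen receptor chain Itga11, at 101 ± 3.99 CPM per kb, and the fibronectin receptor chain Itga5, at 97.9 ± 10.2, which did not differ beyond their spread. Itgav followed at 67.8 ± 1.83, then Itga8 at 32.3 ± 11.9 and Itgam at 31.3 ± 1.69, again within their spread. By the longest transcript, Itgav was at 103 CPM per kb in WT, beside Itga11 at 104 and Itga5 at 109, and Itga6 at 36.8 lay above Itgam at 33.5, so this order depends on the length used. Itgb2 was at 40.1 ± 2.42 CPM per kb in WT and took 6.47 ± 0.139% of the summed beta chains there, against 4.29 ± 0.793% in KO. In total the alpha chains summed to 384 ± 11.4 CPM per kb in WT and 338 ± 24.7 in KO, and the beta chains to 621 ± 46.4 and 611 ± 104.

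**Figure D3:**
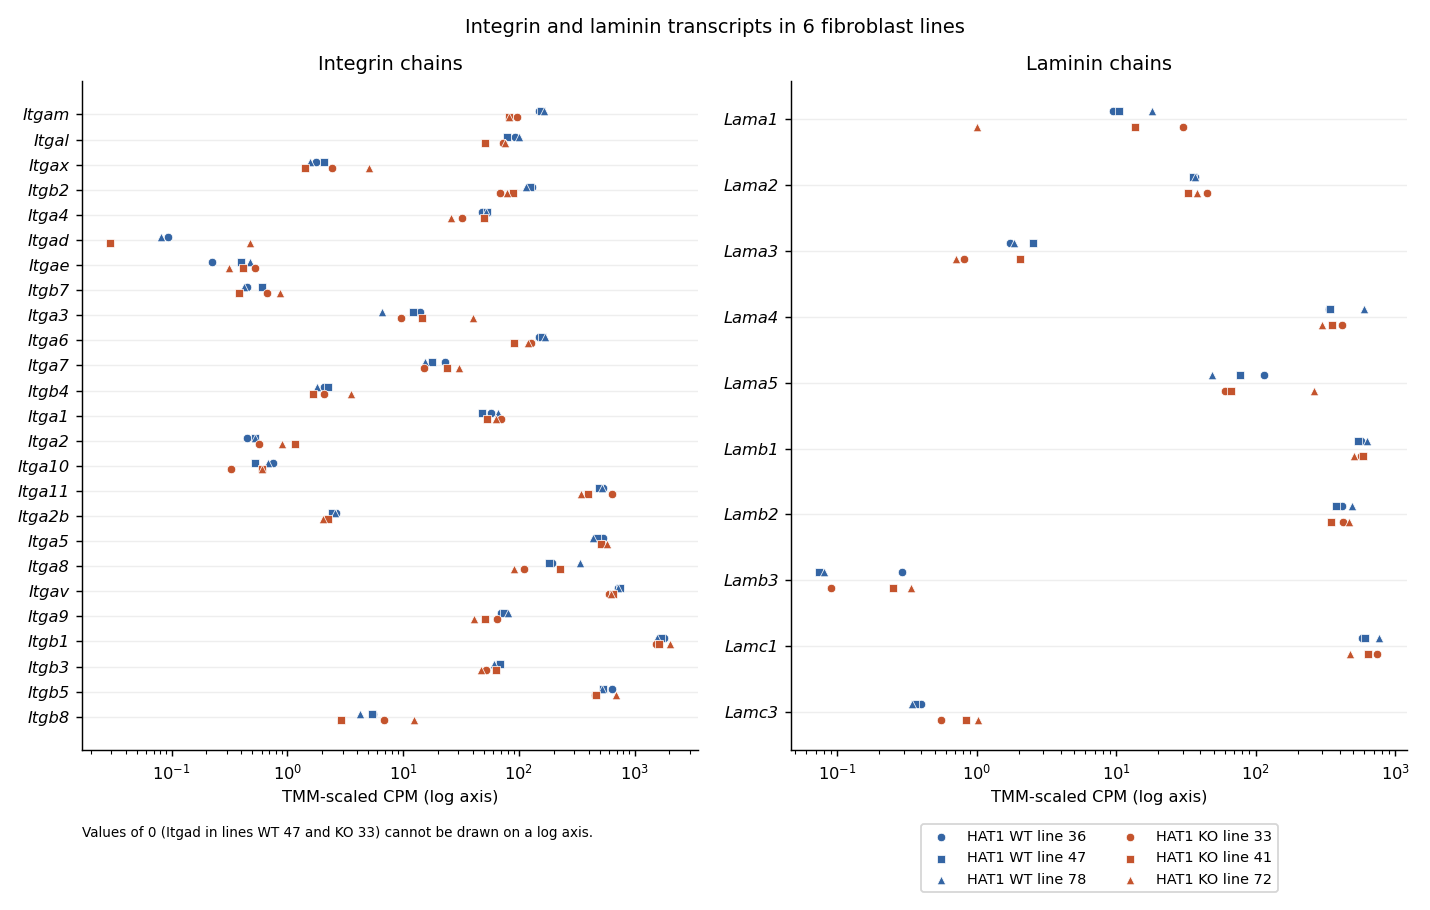
TMM-scaled CPM (x axes, log scale) of 35 members in each of the 6 lines, with integrin chains on the left and laminin chains on the right, blue for HAT1 WT and orange for HAT1 KO. Levels span from under 1 CPM (Itgae, Lamb3) to 2036 CPM (Itgb1), and KO line 72 (orange triangles) lies apart for Itga3, Lama1 and Lama5.

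Among the laminin receptors, Itga6 was lower and Itga3 and Itga7 had higher estimates. Itga6, which pairs with Itgb1 or Itgb4, was at 148, 160 and 167 CPM in WT and at 129, 91.2 and 121 CPM in KO. No KO value reached the WT values, and the log2 fold change of -0.48 had an unadjusted p of 0.0118 and an adjusted p of 0.21 in edgeR. Itga6 (chr2:71745616-71858416, GRCm38) starts 304 kb beyond the end of Hat1 (chr2:71388958-71441622), so it shares the chromosomal neighbourhood of the altered locus. On the same chromosome Itga4 lies 7.81 Mb and Itgav 12.3 Mb from Hat1, and Itga8, Lama5 and Lamc3 lie 39.4 Mb or more away. Whether position bears on the level of any of these genes was not tested. Itga3 was at 14.0, 12.2 and 6.61 CPM in WT and at 9.54, 14.6 and 40.5 CPM in KO. Its log2 fold change of 0.98 (adjusted p = 0.486) was 0.16 without KO line 72, which held the highest value. Itga7, the main laminin receptor chain of muscle, ran from 15.6 to 22.8 CPM in WT and from 15.2 to 30.7 CPM in KO. Itgb4, the beta chain of hemidesmosomes, stayed between 1.67 and 3.55 CPM.

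Of the collagen receptor chains, only Itga2 had no overlap between the genotypes. Itga11 was at 539, 498 and 520 CPM in WT and at 642, 393 and 343 CPM in KO, so the KO lines lay on both sides of WT (adjusted p = 0.775). Itga1 had means of 57.2 ± 8.70 and 62.6 ± 8.74 CPM in WT and KO. Itga2 was rare, at 0.451, 0.522 and 0.526 CPM in WT and at 0.573, 1.15 and 0.894 CPM in KO, without overlap. Its log2 fold change was 0.80 with an unadjusted p of 0.049 and an adjusted p of 0.337 in edgeR. Itga10, the cartilage-linked chain, stayed under 1 CPM in all lines, and 33.5% of its exon bases are shared with Gm42957 on the same strand.

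Among the chains that recognise the RGD motif of fibronectin and vitronectin, Itgav showed a small difference with little spread. It was at 713, 751 and 722 CPM in WT and at 603, 652 and 629 CPM in KO. The groups did not overlap, and the log2 fold change of -0.21 had an unadjusted p of 0.0203 and an adjusted p of 0.252 in edgeR. Of its beta partners, Itgb3 was at 67.1, 69.2 and 61.0 CPM in WT and at 51.8, 63.1 and 47.2 CPM in KO (adjusted p = 0.35). Itgb5 was at 635, 536 and 520 CPM in WT and at 457, 463 and 691 CPM in KO (adjusted p = 0.894), and Itgb8 was between 2.90 and 12.3 CPM. KO line 72 was the highest line for both Itgb5 and Itgb8. Itga5, the main fibronectin receptor chain, was at 483 ± 50.2 CPM in WT and 541 ± 37.3 CPM in KO (adjusted p = 0.516). Itga8, which binds nephronectin and marks mesenchyme, was at 193, 182 and 338 CPM in WT and at 110, 227 and 91.1 CPM in KO. Its log2 fold change of -0.74 (adjusted p = 0.464) became -0.38 without WT line 78. Itga2b, the platelet chain, was at 2.64, 2.41 and 2.61 CPM in WT and at 2.14, 2.26 and 2.04 CPM in KO, without overlap but with an adjusted p of 0.529.

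Itga9, which binds tenascin-C and osteopontin, was at 70.7, 74.3 and 81.3 CPM in WT and at 65.2, 51.5 and 40.8 CPM in KO. No KO line reached the WT lines, and the log2 fold change of -0.52 had an unadjusted p of 0.0203 and an adjusted p of 0.252 in edgeR. Itgb1 itself was at 1781, 1680 and 1561 CPM in WT and at 1532, 1615 and 2036 CPM in KO. Its log2 fold change of 0.05 had an SE of 0.13, and its sign turned when KO line 72 was left out, at -0.08.

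The laminin chains showed no shared direction. Of the 11, 5 had a lower and 6 a higher estimate, the median log2 fold change was 0.08, and 0 passed an adjusted p under 0.05 in edgeR or in DESeq2's Wald test. At an unadjusted p under 0.05, only Lamc3 differed. Lamc3, the gamma3 chain, was rare, at 0.398, 0.36 and 0.344 CPM in WT and at 0.55, 0.843 and 1.02 CPM in KO. The groups did not overlap, and the log2 fold change of 1.13 had an SE of 0.32, an unadjusted p of 0.0116 and an adjusted p of 0.21. The difference was 1.13 on the log2 scale within lane 6 and 1.30 within lane 7.

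Per kb of exon, Lama4, Lamb1 with Lamb2, and Lamc1 led the alpha, beta and gamma chains. Lamc1, the gamma chain of most laminins, was at 575, 602 and 768 CPM in WT and at 741, 633 and 474 CPM in KO, and made up 99.2 ± 0.114% of the gamma chains per kb in WT and 99 ± 0.373% in KO. Lamb1 was at 564, 537 and 627 CPM in WT and at 564, 587 and 509 CPM in KO. Lamb2, which replaces Lamb1 at synapses and in vessels and glomeruli, was at 417, 373 and 487 CPM in WT and at 418, 348 and 468 CPM in KO. Per kb of exon, Lamb1 made up 45.5 ± 1.41% of the beta chains in WT and 45.4 ± 5.42% in KO, with nearly all the rest from Lamb2. With the longest transcript as length the order turned, and Lamb1 made up 56.9% in WT and 56.8% in KO. Lamb3, a beta chain of the laminin of epithelial anchoring sites together with Lama3, was low, at 0.337 CPM or less. Lama3 was at 1.72, 2.51 and 1.85 CPM in WT and at 0.808, 2.06 and 0.713 CPM in KO (adjusted p = 0.491).

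The alpha chain decides which receptors a laminin binds, and 3 of the alpha chains, Lama1, Lama3 and Lama5, differed by more than 3-fold between lines. Lama4, the chain of mesenchymal and endothelial laminins, was at 333, 341 and 593 CPM in WT and at 412, 350 and 296 CPM in KO, with the highest value in WT line 78. Lama5, which is widespread in epithelial and vascular basement membranes, was at 115, 77.3 and 48.8 CPM in WT and at 60.3, 66.9 and 263 CPM in KO. Its log2 fold change of 0.70 (adjusted p = 0.665) became -0.32 without KO line 72. Lama1, the chain of the earliest embryonic basement membranes, was at 9.40, 10.4 and 17.9 CPM in WT and at 30.3, 13.7 and 1.01 CPM in KO. The KO lines held both its highest and its lowest value, 29.9-fold apart. Lama2, the chain of muscle and nerve, was at 36.4 ± 0.707 CPM in WT and 38.5 ± 6.20 CPM in KO.

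**Figure D4:**
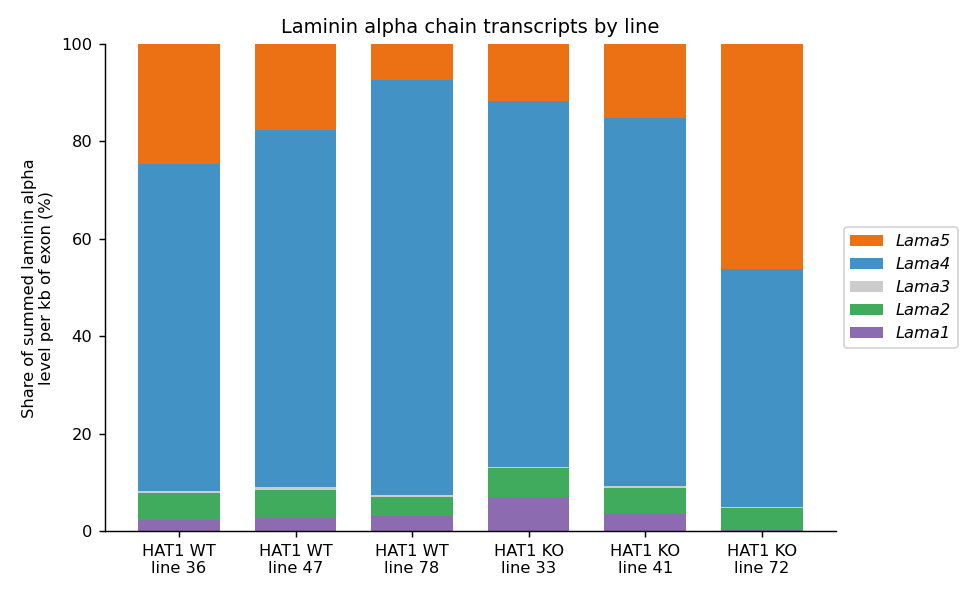
Share of each alpha chain in the summed laminin alpha level per kb of exon (y axis, percent) in each line, stacked to 100%. Lama4 leads in all 6 lines, from 49.0% in KO line 72 to 85.2% in WT line 78, and Lama5 reaches 46.1% in KO line 72.

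As a share of the summed alpha chains per kb of exon, Lama4 held 67.2, 73.3 and 85.2% in WT and 75.2, 75.4 and 49.0% in KO. Lama5 held 24.5, 17.6 and 7.42% in WT and 11.7, 15.3 and 46.1% in KO. The genotypes overlapped for both chains, with differences of -8.73 and 7.81 percentage points and p = 0.6 and 0.7 in two-sided exact permutation tests. By this measure KO line 72 was the line in which both chains were nearly equal. Lama4 has 12068 exon bases but 6046 in its longest transcript, whereas Lama5 has 11388 by either length. The near equality in KO line 72 therefore depends on the length used. Over all 11 laminin shares compared, the adjusted exact permutation p-values were between 0.856 and 0.9. Without KO line 72, the difference was 0.05 points for Lama4 and -3.07 points for Lama5. With the longest transcript as length in place of all exon bases, Lama4 held 83.9% in WT and 77.4% in KO. The summed alpha level was 45.8 ± 10.4 CPM per kb in WT and 44.7 ± 5.86 in KO.

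KO line 72 stood apart for these genes more often than the other lines. It held the highest or the lowest value for 24 of the 35 tested members, or 68.6%, and for 21 of the 28 matrix-binding and laminin chains, or 75%, against 51.5% of all genes tested. WT line 78 did so for 37.1% of members and 40.4% of all genes. The highest and lowest line differed by more than 3-fold for 8 members (22.9%, against 17.7% of all genes): Itga3, Itga8, Itgax, Itgb8, Lama1, Lama3, Lama5 and Lamb3. The median ratio of highest to lowest line was 2 over the members and 1.46 over all genes.

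Proteins that act with the matrix-binding integrins inside the cell were read in the same fit. Of the 29 genes of this adhesome list that were tested, 21 had a higher and 8 a lower estimate, with a median log2 fold change of 0.10, and 0 passed an adjusted p under 0.05 in edgeR. At an unadjusted p under 0.05, 2 were higher (6.9%, against 5.88% of all genes) and 0 lower. Parva, alpha-parvin, which links integrins to actin through the ILK complex, was at 436, 421 and 425 CPM in WT and at 452, 528 and 530 CPM in KO. The groups did not overlap, and the adjusted p was 0.292. Lims2, PINCH2 of the same complex, had a log2 fold change of 0.54 with an adjusted p of 0.328. Every KO value exceeded every WT value for 8 of the 29 (27.6%), against 9.59% of all genes tested, and the reverse held for 2 (6.9%), against 12.4%. Among smooth muscle markers 6 of 6 had a higher estimate, 4 of them at an unadjusted p under 0.05 (66.7%, against 5.88% of all genes). Of these markers 0 passed an adjusted p under 0.05 in edgeR, where the smallest was 0.115. These markers summed to 4427 to 5355 CPM in WT and 5785 to 7035 CPM in KO. Their part in the adhesome levels was not tested.

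Of the 17 partners of laminin in the basement membrane, such as nidogens, perlecan and collagen IV, 8 had a lower and 9 a higher estimate, and the median log2 fold change was 0.01. Col4a1, a chain of the collagen IV network, was lower at an unadjusted p of 0.0409 and an adjusted p of 0.32 in edgeR, and the only one to pass the unadjusted threshold, which makes 5.88% of the list, against 8.77% of all genes. Of 12 tested ligands of integrins outside the laminins, 4 had a lower and 8 a higher estimate, and 1 (8.33%, near the share over all genes) was lower at an unadjusted p under 0.05. This was Tnc, tenascin-C, a ligand of Itga9. Tnc was at 5154, 5299 and 5858 CPM in WT and at 2995, 4023 and 2102 CPM in KO, without overlap, with an unadjusted p of 0.011 and an adjusted p of 0.205. Tnc and Itga9 both had their lowest value in KO line 72, which was the lowest line for 25.4% of all genes tested. Any link between them was not tested.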

How the data were processed

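RNA-seq of 6 pMEF lines was read from 1 table of raw read counts per gene, which the authors deposited without normalization. Its fold changes and p-values for KO against WT, computed by the authors, were not used. The submitters' processing notes name the mm10 build and edgeR. The aligner, the counter and the use of strand are not given in the sources used here. Lines were grouped by the genotype label, and every count column matched a line by name. Identifiers were looked up in GENCODE M21 on GRCm38.

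After filterByExpr, edgeR 4.0.16 (R 4.3.3) was run on the counts with TMM scaling, glmQLFit and glmQLFTest, genotype as the only term, two-sided, and Benjamini-Hochberg adjustment over 14773 genes. CPM are TMM-scaled and values are mean ± SD. The approximate SE is the absolute log2 fold change over the root of F. Ratios and shares were compared by exact permutation, which cannot give a p under 0.1. Alternatives used DESeq2 1.42.0, voom in limma 3.58.1, other filters and scalings, lane or sex-linked expression as a term, and each line left out. The fit was tested on simulated data. With 3 counts as the floor, a count of 0 allows up to 0.0444 CPM in the shallowest line, for counting error only. All members were named but 1, which enters the totals and is not reported here. From other lists, at most 4 genes per direction with the smallest unadjusted p under 0.05 were named, and fixed defining markers. Members and lists were chosen with earlier results of these data known.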

Additional observations from a re-analysis of the deposited data

How the results depend on the processing

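The count of 1 member lower at an adjusted p under 0.05 became 4 with DESeq2's Wald test (Itgam, Itgb2, Itga6 and Itgav), 2 with voom (Itgam and Itgb2), 0 with lane in the model and 0 with sex-linked expression in the model, and ran from 0 to 1 when a line was left out. The 2 members higher at an unadjusted p under 0.05 became 1 with library size alone, DESeq2's Wald test or voom, 0 with a mean of at least 50 counts, lane or sex-linked expression, and 1 to 4 without a line. The 6 lower members ran from 4 to 8 without a line. At an unadjusted p under 0.05, the 2 adhesome genes became 6 with DESeq2's Wald test, 4 with no filter, 1 with lane and 0 to 7 without a line. The 1 basement membrane partner became 2 with DESeq2's Wald test, 0 with voom or lane, and 0 to 2 without a line. The 1 integrin ligand became 2 with library size alone or sex-linked expression, 4 with DESeq2's Wald test, 3 with voom, and 1 to 3 without a line. The filter of 50 counts leaves Lamc3 out of the test, and Itga2 had an unadjusted p of 0.0526 under it. The 7 myeloid markers lower at an adjusted p under 0.05 became 12 with DESeq2's Wald test and 4 with no filter, the 3 called genes among those that activate leukocyte integrins became 5 with DESeq2's Wald test, and Pf4 lost its call with no filter or with DESeq2 size factors. The cause of the other changes was not tested, and the shares of all genes called in these alternative fits are not given here.

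Shares of laminin chains turned in sign when a line was left out. In percentage points, KO minus WT, they ran from -0.845 to 2.49 for Lama1, from -0.287 to 0.622 for Lama2, from -13.2 to 0.0502 for Lama4, from -3.07 to 14.1 for Lama5, from -2.83 to 2.59 for Lamb1, and from -2.59 to 2.82 for Lamb2.

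Over 34 genes and all alternatives, 429 of 470 log2 fold changes kept direction and side of the threshold, 7 (all Itgam) lost the call, 4 gained it and 30 turned in sign. Turned values were -0.040 with lane and -0.183 with sex-linked expression for Itgae, -0.073 for Itga1, 0.047 for Itgb5 and -0.256 for Lama1 with sex-linked expression, and, with voom, -0.057 for Itgb4, -0.063 for Itgb1, -0.052 for Itgb8, -0.153 for Lama5, 0.019 for Lamb1 and 0.083 for Lamc1. Without a line, the log2 fold changes ran from -0.057 to 0.429 for Itgae, -0.110 to 0.462 for Itgb4, -0.496 to 0.0092 for Itga11, -0.077 to 0.126 for Itgb1, -0.280 to 0.035 for Itgb5, -0.039 to 0.923 for Itgb8, -0.777 to 0.818 for Lama1, -0.046 to 0.191 for Lama2, -0.398 to 0.074 for Lama4, -0.323 to 1.05 for Lama5, -0.100 to 0.014 for Lamb1, -0.140 to 0.066 for Lamb2 and -0.227 to 0.097 for Lamc1.

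No paired analysis by replicate number was possible because the genotypes share no numbers. The fit with lane as a term is given above. With 3 lines a group, a member that missed the threshold was not shown to be equal between the genotypes. Members near or under 1 CPM rest on fewer counts, such as 6 to 26 per line for Lamb3 and 29 to 79 for Lamc3. Neither the use of strand nor the handling of reads shared by overlapping genes was stated for the counting. Overlapping genes therefore have uncertain counts, among them Itgam and Itga10 (overlap on the same strand) and Itga4 (overlap on the opposite strand).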
